A study of Homo sapiens with 16 samples.

Results

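Aldehyde dehydrogenases were examined as 10 genes of the family, ALDH1A1, ALDH1A2, ALDH1A3, ALDH1B1, ALDH2, ALDH3A1, ALDH3A2, ALDH3B1, ALDH7A1 and ALDH18A1, picked by symbol out of 63677 gene identifiers. The choice was made with gene levels and responses of these cells already known, so differences in level between the cell lines are given without a test. RNA sequencing was performed on the pancreatic cancer cell lines MiaPaCa2 and PANC1, both grown in DMEM with serum. Each line was left untreated as a control, treated with 40 nM gemcitabine, a nucleoside analogue that interferes with DNA replication, treated with 50 µM genistein, a soy isoflavone that acts as a phytoestrogen, or co-treated with both drugs at these doses. All cultures were harvested after 24 hours, and the 8 groups each held 2 biological replicates, here called replicates 1 and 2, or 16 libraries in all.

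The enzymes of this family oxidize aldehydes to carboxylic acids with NAD+ or NADP+ as the cofactor. The ALDH1A enzymes turn retinaldehyde into retinoic acid, the ligand of the RAR and RXR nuclear receptors, and high ALDH1A activity is widely used to enrich stem-like cells from tumors, pancreatic tumors included. Other members clear acetaldehyde in mitochondria, fatty aldehydes in the endoplasmic reticulum or aldehydes from lipid peroxidation, whereas ALDH7A1 takes part in lysine breakdown and ALDH18A1 makes a precursor of proline.

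Libraries held between 12943482 and 31991860 counted reads, with the highest totals in the PANC1 controls. Replicates of all 8 groups differed by more than sampling noise. Epithelial markers were present in both lines, with 3 of 5 above 1 FPKM in every MiaPaCa2 library and 5 of 5 in every PANC1 library. None of 6 acinar and endocrine markers had a group mean above 1 FPKM, and the highest value in a single library was 1.04 FPKM, for CEL in MiaPaCa2. The summed level of these markers was between 0.393 and 1.09 FPKM in MiaPaCa2 and between 0.211 and 0.532 FPKM in PANC1. Of 5 leukocyte and endothelial markers, 1 at most exceeded 1 FPKM in any library. FPKM is a level of the transcript scaled to its length and to the depth of the library and is used below to compare genes, whereas log2 fold changes come from the counts. Since cells of a culture are measured in bulk, fewer cells with a transcript and less of the transcript per cell cannot be told apart.

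Not every member was abundant enough for a test. In MiaPaCa2, 9 of the 10 members passed the low-count filter (all but ALDH1A2), and in PANC1, 7 of the 10 passed (all but ALDH1A1, ALDH1A2 and ALDH3A1). ALDH2 passed in MiaPaCa2 only through the co-treated libraries, where it was highest, so its difference from the control follows in part from the filter and supports nothing on its own. A gene was called when its adjusted p from the fit across all genes was at most 0.05, its absolute log2 fold change was at least 0.4 and its mean level in the treated group was above 1 FPKM.

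In the untreated lines 6 of the 10 members were above 2 FPKM in both, and 3, ALDH1A1, ALDH2 and ALDH3A1, were above 1 FPKM in one line and below it in the other. In MiaPaCa2, ALDH1A1 was the most abundant member at 985.5 ± 54.3 FPKM (SD, n = 2), followed by ALDH7A1 at 364.8 ± 30.9, ALDH3A2 at 165.7 ± 1.62, ALDH1A3 at 134.0 ± 7.39, ALDH18A1 at 68.7 ± 3.82 and ALDH1B1 at 17.1 ± 0.435 FPKM. ALDH3B1 at 2.50 ± 0.0843 and ALDH3A1 at 2.01 ± 0.569 FPKM came next, with nearly touching replicates, and ALDH1A2 at 0.348 ± 0.115 and ALDH2 at 0.0469 ± 0.0181 FPKM were lowest. In PANC1 no member stood out, and the order was ALDH7A1 at 66.8 ± 7.40, ALDH3A2 at 61.0 ± 14.6, ALDH1A3 at 57.6 ± 1.11, ALDH18A1 at 49.6 ± 6.98, ALDH1B1 at 21.3 ± 1.43, ALDH2 at 6.53 ± 2.02 and ALDH3B1 at 4.83 ± 0.167 FPKM. ALDH1A2 at 0.743 ± 0.618, ALDH3A1 at 0.508 ± 0.511 and ALDH1A1 at 0.161 ± 0.0316 FPKM were below 1 FPKM on average. The replicates of ALDH7A1 and ALDH3A2 overlapped in PANC1, as did those of ALDH3A2 and ALDH1A3, so these neighbors do not differ beyond their spread.

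**Figure D1:**
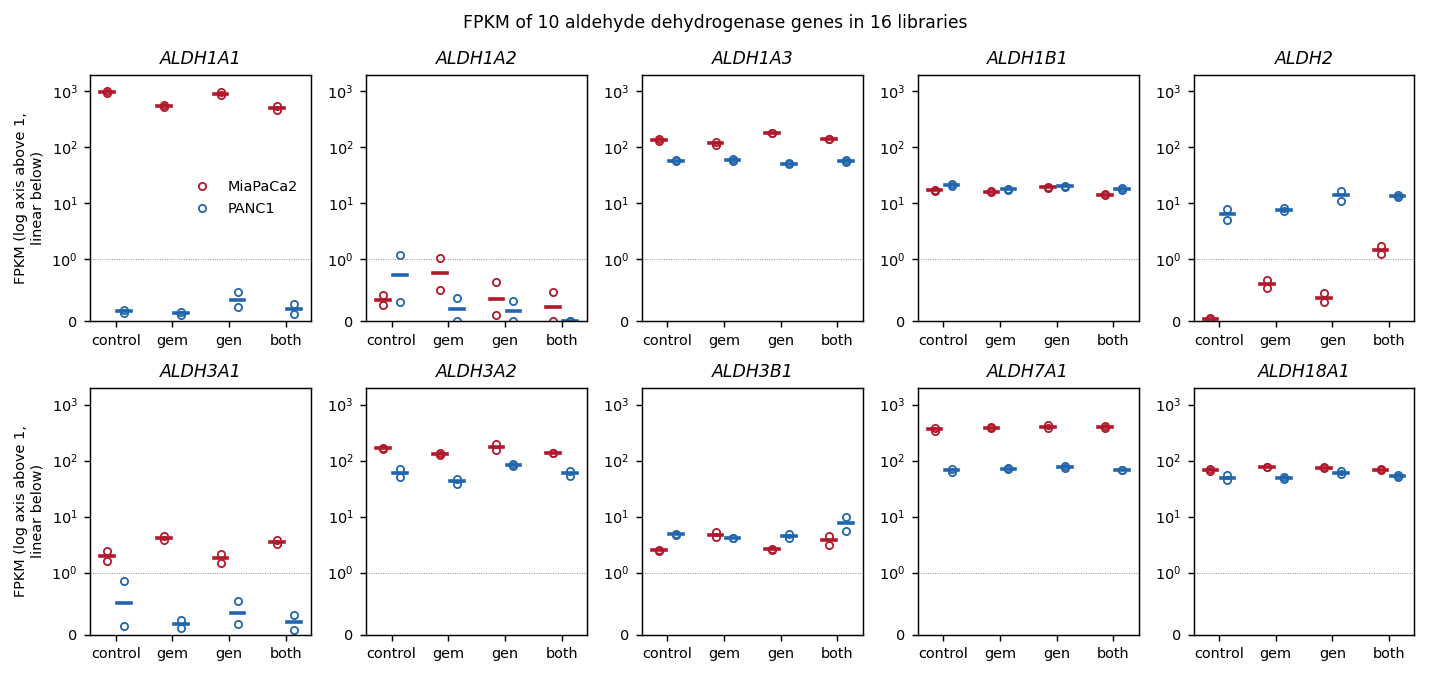
FPKM (y axis, logarithmic above 1 and linear below) of the 10 members in the control, gemcitabine (gem), genistein (gen) and co-treated (both) groups; circles are the 2 libraries of a group, bars their mean, red MiaPaCa2 and blue PANC1. ALDH1A1 sits at 985.5 FPKM in untreated MiaPaCa2 and below 0.5 FPKM in every PANC1 library, while ALDH2 is higher in every PANC1 library than in any MiaPaCa2 library.

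On the log2(FPKM + 1) scale, 5 of the 10 members were at least 2-fold apart between the untreated lines. All 5 were among the 9 members above 1 FPKM in at least 1 line, and of the 18331 genes above that level 28.7% were as far apart. ALDH1A1, ALDH1A3, ALDH3A2 and ALDH7A1 were higher in MiaPaCa2 and ALDH2 was higher in PANC1. ALDH3A1 would be added with CPM in place of FPKM or with a pseudocount of 0.1. CPM here are counts scaled to library size after TMM adjustment, and not to transcript length. ALDH1A1 was separated most, with 41030 and 30366 reads in the MiaPaCa2 controls against 7 and 5 reads in the PANC1 controls, or 6118-fold in FPKM and 9502-fold in CPM. ALDH2, which oxidizes acetaldehyde in mitochondria, had the opposite distribution, with 1 read in each MiaPaCa2 control against 177 and 199 reads in the PANC1 controls. Corrected for TMM-adjusted library size, the ratio of these ALDH2 counts was 106.8. Its 95% exact interval was 29.4 to 885, which covers counting error only. ALDH1B1, ALDH3B1 and ALDH18A1 were within 2-fold of each other in the lines.

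The makeup of the family differed accordingly. Summed over all 19 ALDH genes annotated, the level was 1906 ± 70.3 FPKM in untreated MiaPaCa2 and 351.3 ± 1.72 FPKM in untreated PANC1. ALDH1A1 supplied 51.7% ± 0.941 of the MiaPaCa2 sum and 0.0458% ± 0.00878 of the PANC1 sum. ALDH1A3 was the leading ALDH1A gene in PANC1, with 16.4% ± 0.235 of the sum.

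ALDH1A1 encodes the cytosolic retinaldehyde dehydrogenase that serves as the stem-cell marker of the family. The gene lies on the reverse strand of chromosome 9 (GRCh37 chr9:75515587-75695358), and the transcript ENST00000297785 held 97.6% and 98.5% of its FPKM in the MiaPaCa2 controls. ALDH1A3, a second retinaldehyde dehydrogenase, lies on the forward strand of chromosome 15 (GRCh37 chr15:101417919-101456831). The 250 bases before a RefSeq start of each gene are shown because these are the ALDH1A genes that moved in MiaPaCa2. That start need not lie at the edge of the gene span given above. The sequences are of build GRCh38.p14, read in the direction of transcription with CCAAT boxes in capitals.
ALDH1A1 (GRCh38.p14 chr9:72953054-72953303, reverse strand): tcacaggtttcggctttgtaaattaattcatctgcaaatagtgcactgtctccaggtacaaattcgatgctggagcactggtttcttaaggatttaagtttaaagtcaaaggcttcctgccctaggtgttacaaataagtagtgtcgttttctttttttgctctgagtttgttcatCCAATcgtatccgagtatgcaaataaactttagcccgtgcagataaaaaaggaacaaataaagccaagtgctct
ALDH1A3 (GRCh38.p14 chr15:100879581-100879830, forward strand): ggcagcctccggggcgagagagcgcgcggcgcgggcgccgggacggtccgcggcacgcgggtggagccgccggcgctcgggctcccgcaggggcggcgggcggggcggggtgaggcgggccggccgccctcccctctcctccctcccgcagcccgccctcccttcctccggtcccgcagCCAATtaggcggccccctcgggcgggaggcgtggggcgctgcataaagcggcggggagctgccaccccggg
The 2 sequences differ in base composition. The ALDH1A1 sequence held 6 CpG dinucleotides at 38.4% GC and the ALDH1A3 sequence 38 at 82.4% GC, against a median of 11 over 35116 promoters. Each held 1 CCAAT box, a motif found on either strand in 32.0% of all promoters of this length. Of the 11 promoters of the 8 members with an entry, 6 held it.

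Gemcitabine lowered ALDH1A1 in MiaPaCa2. Levels were 1024 and 947.2 FPKM in the controls and 532.4 and 568.8 FPKM after gemcitabine. The groups did not overlap, and the counts fell by 0.97 ± 0.0840 on the log2 scale (SE, n = 2 per group, adjusted p = 8.87e-06). After co-treatment the levels were 543.1 and 464.5 FPKM, again below both controls, with a fall of 1.12 ± 0.0847 on the log2 scale (adjusted p = 7.66e-07). With genistein alone ALDH1A1 was at 857.5 and 972.4 FPKM, which overlapped the controls, and its log2 fold change was -0.10 ± 0.0822 (adjusted p = 0.481). Genistein added to gemcitabine gave a log2 fold change of -0.14 ± 0.0864 against gemcitabine alone (adjusted p = 0.339). In PANC1, ALDH1A1 had between 3 and 10 reads in each of the 8 libraries, too few to follow a response.

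ALDH1A1 made up less of the family after gemcitabine. Its share of the summed FPKM of MiaPaCa2 was 36.2% ± 1.47 with gemcitabine, 46.8% ± 0.713 with genistein and 32.7% ± 2.45 with co-treatment, against 51.7% in the control. The family sum moved from 1906 to 1521 ± 9.17 FPKM with gemcitabine and 1541 ± 54.4 FPKM with co-treatment, and was 1953 ± 144 FPKM with genistein.

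**Figure D2:**
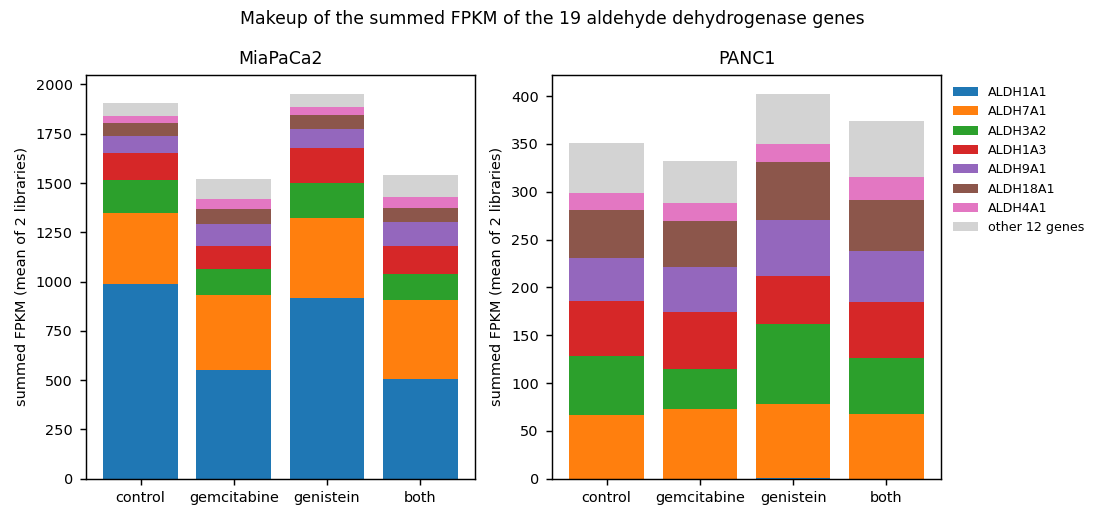
Summed FPKM of the 19 ALDH genes (y axis, mean of 2 libraries, a separate scale for each line) by treatment. The same genes are stacked by name in both lines, with the other 12 pooled in grey. The blue ALDH1A1 block shrinks from 51.7% of the sum in untreated MiaPaCa2 to 36.2% with gemcitabine and 32.7% with both drugs, and is absent to the eye in PANC1.

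ALDH1A3 went in opposite directions with the single drugs in MiaPaCa2. Genistein raised it from 128.8 and 139.2 FPKM in the controls to 177.3 and 183.9 FPKM, without overlap, a log2 fold change of 0.46 ± 0.0768 (adjusted p = 0.00405). Without either control replicate this call was lost at log2 fold changes of 0.47 and 0.46. Gemcitabine gave 126.453 and 109.998 FPKM, just below the controls, and a fall of 0.40 ± 0.0791 on the log2 scale (adjusted p = 0.00185). That value lies at the threshold of 0.4, and with scaling by library size alone it was -0.29, with DESeq2 -0.39 and on log2(FPKM + 1) -0.18, none of them called. Without co-treated replicate 2, gemcitabine replicate 1 or control replicate 1 it was no longer called either, at -0.40. Co-treated cells had 139.3 and 141.2 FPKM and were not called. In PANC1, ALDH1A3 ranged from 49.4 to 61.8 FPKM over the 8 libraries and was called in none of the comparisons. The antisense transcript ALDH1A3-AS1 covers 32.2% of the exon length of ALDH1A3 on the opposite strand and had between 10 and 19 reads in the MiaPaCa2 libraries and between 117 and 445 in PANC1. ALDH1A2, the embryonic retinaldehyde dehydrogenase, had at most 7 reads in any library and is not described further.

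ALDH1B1 and ALDH2 are the mitochondrial members that handle acetaldehyde. ALDH1B1 had similar levels in both lines, between 14.1 and 19.6 FPKM in MiaPaCa2 and between 17.0 and 22.4 FPKM in PANC1. It was lower after co-treatment in PANC1, with 17.0 and 18.6 FPKM against 22.4 and 20.3 FPKM in the controls, a fall of 0.42 ± 0.116 on the log2 scale (adjusted p = 0.0396). The call did not hold in 11 of 21 alternatives, among them scaling by library size alone (-0.26) and the removal of any PANC1 library other than control replicate 2. In MiaPaCa2 the co-treated log2 fold change was -0.34 ± 0.0954 (adjusted p = 0.00900), below the fold threshold, and with the correction for GC content it was -0.59 and called (adjusted p = 2.86e-05).

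ALDH2 was higher in the libraries with genistein in PANC1. It was at 7.96 and 5.10 FPKM in the controls, 8.28 and 7.19 with gemcitabine, 11.1 and 16.5 with genistein and 14.3 and 13.1 with co-treatment, so that all 4 libraries with genistein lay above all 4 without it. The co-treated change was called, with a log2 fold change of 1.08 ± 0.193 (adjusted p = 0.00837), although it missed the threshold in a fit of only the 4 libraries compared (1.07, adjusted p = 0.0690). The genistein change of 1.15 ± 0.196 was not called (adjusted p = 0.0972), nor was that of genistein added to gemcitabine at 0.87 ± 0.195 (adjusted p = 0.135). These comparisons, which passed under 5 and 4 of 21 alternatives respectively, had an adjusted p of 0.00149 to 0.660 and 0.0159 to 0.791 over them.

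In MiaPaCa2, ALDH2 was near the limit of detection. It had 1 read in each control, 11 and 9 with gemcitabine, 6 and 12 with genistein and 23 and 18 with co-treatment. Both co-treated libraries were above all others. Ratios of counts were corrected for TMM-adjusted library size. Gemcitabine was 8.76 times the control with a 95% exact interval of 2.13 to 77.3. Genistein was 7.90 times the control with 1.89 to 70.2, and co-treatment 19.8 times with 5.15 to 169. Against gemcitabine alone, co-treatment was 2.26 times higher with an interval of 1.30 to 4.08. These intervals cover counting error only. The fitted co-treated log2 fold change of 3.74 ± 0.565 was called (adjusted p = 0.000147) and rests on the 2 control reads and on how the fit treats them. Gemcitabine and genistein alone passed on adjusted p (0.00431 and 0.0221) but were not called, since their mean levels were below 1 FPKM. A readthrough gene on the same strand shares 6.99% of the exon length of ALDH2.

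The ALDH3 genes split in MiaPaCa2. ALDH3A1, which oxidizes aromatic and medium-chain aldehydes, was at 2.41 and 1.60 FPKM in the controls and at 3.75 and 4.47 FPKM with gemcitabine, without overlap, with a log2 fold change of 1.23 ± 0.225 (adjusted p = 0.00116). With co-treatment it was at 3.23 and 3.85 FPKM, a log2 fold change of 0.89 ± 0.235 (adjusted p = 0.00667), and with genistein alone at 1.50 and 2.13 FPKM, a log2 fold change of 0.04 ± 0.254 (adjusted p = 0.933). ALDH3B1, which acts on lipid-derived aldehydes, behaved alike, with 2.44 and 2.56 FPKM in the controls, 5.27 and 4.30 FPKM with gemcitabine and 3.14 and 4.57 FPKM with co-treatment. Its log2 fold changes were 0.70 ± 0.198 with gemcitabine (adjusted p = 0.0146) and 0.58 ± 0.202 with co-treatment (adjusted p = 0.0278).

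Both of these genes are GC-rich, at 59.5% GC in the longest transcript of each against 42.0% in that of ALDH1A1. The trend of counts with GC content moved with the groups, at -0.22 and -0.14 log2 per 10 points of GC in the MiaPaCa2 controls, 0.14 and 0.05 with gemcitabine and 0.04 and 0.28 with co-treatment. After a correction for GC content, ALDH3A1 kept its gemcitabine call at 0.91, while the log2 fold changes of ALDH3B1 with gemcitabine (0.38), ALDH3A1 with co-treatment (0.51) and ALDH3B1 with co-treatment (0.20) were no longer called. ALDH3B1 also lost its gemcitabine call without gemcitabine replicate 2 (0.58) or control replicate 1 (0.57), and its co-treated call without co-treated replicate 2 (0.33), control replicate 1 (0.46) or control replicate 2 (0.68). ALDH3A1 lost its co-treated call without control replicate 2 (0.62). ALDH3A1 had between 2 and 12 reads in the PANC1 libraries, and ALDH3B1 was called in no PANC1 comparison, with 4.07 to 5.54 FPKM in 7 libraries and 9.94 FPKM in co-treated replicate 2.

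ALDH3A2, the fatty aldehyde dehydrogenase of the endoplasmic reticulum, fell with gemcitabine in both lines. In MiaPaCa2 it was at 164.6 and 166.9 FPKM in the controls and at 134.5 and 125.6 FPKM with gemcitabine, a fall of 0.45 ± 0.0824 on the log2 scale (adjusted p = 0.00116). This call was lost with scaling by library size alone (-0.34), on log2(FPKM + 1) (-0.35), in a fit of all 16 libraries (-0.40) and without control replicate 1 (-0.40). In PANC1 the controls had 50.7 and 71.3 FPKM and the gemcitabine libraries 38.4 and 46.6 FPKM, a fall of 0.64 ± 0.113 on the log2 scale (adjusted p = 0.0174). That call was lost in 7 of 21 alternatives, among them the removal of either gemcitabine replicate (-0.53 and -0.75) or either genistein replicate (-0.65 each). With genistein alone ALDH3A2 was at 79.4 and 86.8 FPKM in PANC1, above both controls, and at 156.6 and 195.3 FPKM in MiaPaCa2, around them, and neither was called (adjusted p = 0.119 and 0.0497, the latter with a log2 fold change of 0.27).

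**Figure D3:**
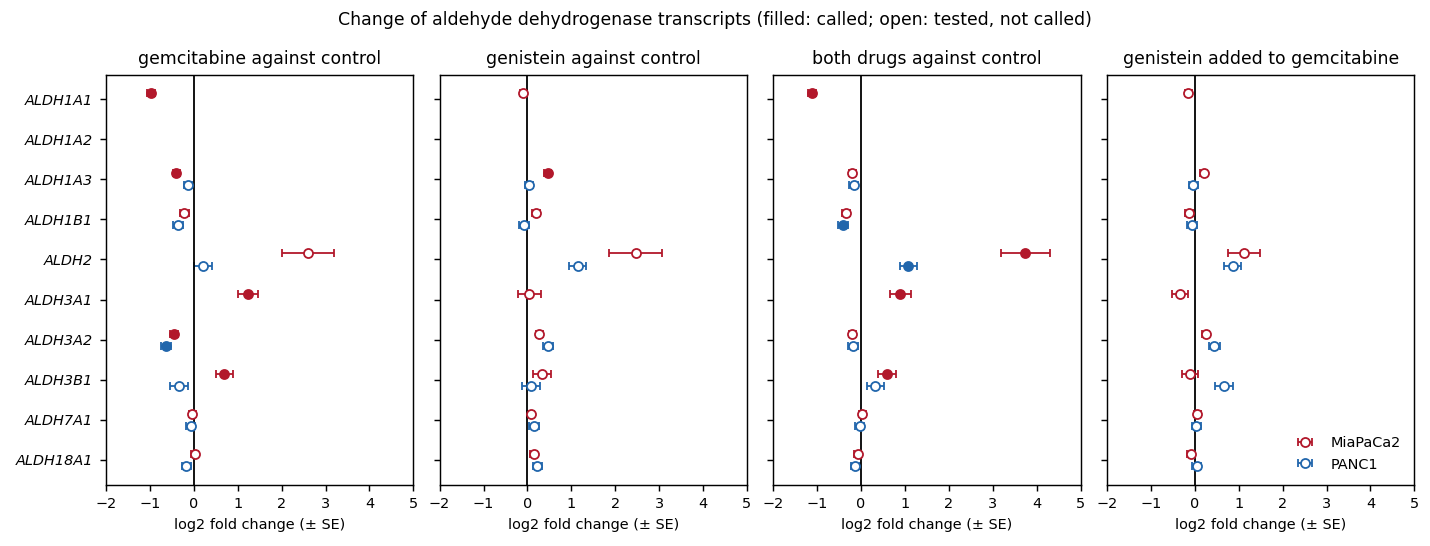
Log2 fold change (x axis) with its standard error for each member tested, in 4 comparisons; red is MiaPaCa2, blue PANC1, filled points were called and open points were not. ALDH1A1 lies near -1 in MiaPaCa2 with gemcitabine and with both drugs, ALDH2 lies right of 0 with both drugs in both lines, and ALDH7A1 and ALDH18A1 lie between -0.17 and 0.23 throughout.

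ALDH7A1 and ALDH18A1 did not pass in any comparison. ALDH7A1, the lysine-degrading member, ranged from 343.0 to 430.0 FPKM in MiaPaCa2 and from 61.6 to 80.9 FPKM in PANC1, and its 8 log2 fold changes lay between -0.07 and 0.15. ALDH18A1, which makes pyrroline-5-carboxylate for proline synthesis, ranged from 66.0 to 77.1 FPKM in MiaPaCa2 and from 44.7 to 64.5 FPKM in PANC1, with log2 fold changes between -0.17 and 0.23. The level of ALDH7A1 relative to other genes depends on how reads were split among 15 listed transcripts. The transcript ENST00000503281, annotated as a target of nonsense-mediated decay, was given 33.6% and 34.9% of its FPKM in the MiaPaCa2 controls, where ALDH7A1 had 4256 and 3257 reads against 5145 and 3827 for ALDH3A2, a gene of lower FPKM.

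ALDH7A1 has a near-identical copy in the genome. The processed pseudogene ALDH7A1P1 (GRCh37 chr5:76586093-76587625) matches the transcript over 1533 bases at 97.4% identity, with 40 mismatches. Of its 50-base windows, the length of a read, 23.6% are identical to the transcript and 35.5% differ from it by 1 base. Reads from identical windows cannot be told apart, and multiply aligned reads were removed before counting. How reads of the pair were assigned was not tested. The counts of the pair kept a nearly fixed ratio. ALDH7A1P1 had between 1584 and 2885 reads in MiaPaCa2 and between 326 and 735 in PANC1, or 0.485 to 0.537 and 0.487 to 0.577 of the ALDH7A1 count in the same library. With the counts of both summed, ALDH7A1 was again called in no comparison.

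**Figure D4:**
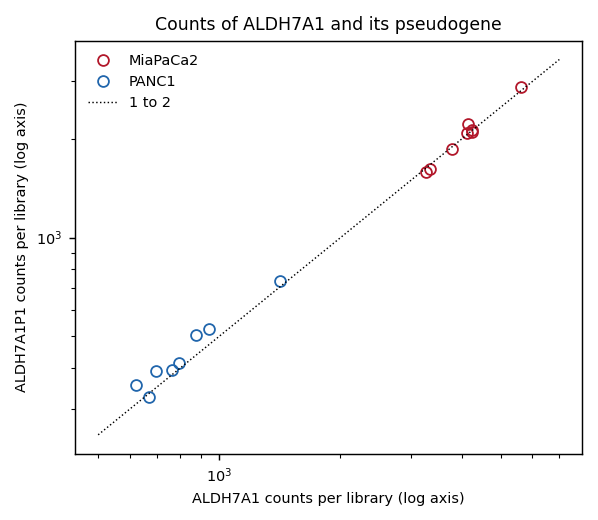
Reads counted for ALDH7A1 (x axis, logarithmic) and for its pseudogene ALDH7A1P1 (y axis, logarithmic) in the 16 libraries, red for MiaPaCa2 and blue for PANC1; the dotted line marks 1 pseudogene read per 2 of the gene. All 16 points lie close to that line, with ratios of 0.485 to 0.577.

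Counted by comparison, 5 of 9 tested members were called with gemcitabine in MiaPaCa2, 2 higher and 3 lower, against 29.5% of all 16064 genes tested, 14.9% higher and 14.6% lower. Genistein alone gave 1 of 9, against 8.3% of all genes, and co-treatment gave 4 of 9, 3 higher and 1 lower, against 40.5%, 20.3% higher and 20.2% lower. Since the filter admitted ALDH2 through its co-treated libraries, the co-treated count without it, 3 of 8 with 2 higher and 1 lower, is the one to set beside that share. The median log2 fold change of the 9 members was -0.03 with gemcitabine, 0.19 with genistein and -0.08 with co-treatment, against medians between -0.01 and 0.00 over all genes. No member was called by limma for genistein added to gemcitabine, where 5.88% of all genes were, 3 members had an unadjusted p under 0.05, and edgeR and DESeq2 also called 0. In PANC1, gemcitabine gave 1 of 7 (7.52% of 16909 genes), co-treatment 2 of 7, 1 in each direction (17.1%, 10.2% higher and 6.9% lower), and genistein 0 of 7 (0.0591%), with 2 at an unadjusted p under 0.05, 0 by edgeR and 2 by DESeq2. Genistein added to gemcitabine gave 0 of 7 in PANC1 (0.0177%), with 3 at an unadjusted p under 0.05, 0 by edgeR and 1 by DESeq2. The shares of all genes here and below are of limma calls and cannot be set beside the edgeR or DESeq2 counts. The members and the lists below were chosen with results of these cells already known. Their counts beside these shares are therefore a description and not a test of the family. The gemcitabine, genistein and co-treatment comparisons of a line share their 2 control libraries. The interaction of the drugs, which asks whether the co-treated change differs from the sum of the single changes, passed for 0 members in either line (0.0249% and 0% of all genes), with 2 members at an unadjusted p under 0.05 in MiaPaCa2 and 0 in PANC1, and with 0 by edgeR and by DESeq2.

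Responses of 9 members could be compared between the lines in a fit of all 16 libraries. For gemcitabine, 3 of 9 differed (adjusted p at most 0.05), against 15.3% of 17863 genes, and all 3 responses were lower in PANC1, as were those of 9.06% of all genes. The difference, PANC1 minus MiaPaCa2, was -2.49 ± 0.627 for ALDH2 (adjusted p = 0.0206), -1.95 ± 0.60 for ALDH3A1 (adjusted p = 0.0448) and -1.13 ± 0.317 for ALDH3B1 (adjusted p = 0.0324). The co-treated response differed for ALDH2 alone, by -2.74 ± 0.596 (adjusted p = 0.00767), against 18.1% of all genes. For genistein 0 of 9 differed by limma (0.0336% of all genes), with 2 at an unadjusted p under 0.05, 0 by edgeR and 1 by DESeq2. ALDH1A1, ALDH2 and ALDH3A1 were compared here across lines in which 1 side had 23 reads or fewer in every library. ALDH3A1 did not pass the filter of PANC1 and entered this fit through MiaPaCa2, and ALDH2 had 1 read in each MiaPaCa2 control. Their differences support nothing on their own, and the counts that include them cannot be read against the shares of all genes. ALDH3B1 had at least 99 reads in every library.

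Of the 9 other ALDH genes, 8 were tested in MiaPaCa2. With gemcitabine 2 of 8 rose, against 14.9% of all genes, and with co-treatment 5 of 8 rose, against 20.3%, with medians of 0.41 and 0.73 on the log2 scale. With genistein limma, edgeR and DESeq2 each called 0 of 8, and 3 had an unadjusted p under 0.05 in limma. ALDH16A1, a member without the usual catalytic cysteine, had log2 fold changes of 1.286 ± 0.230 with gemcitabine (adjusted p = 0.000971) and 1.67 ± 0.227 with co-treatment (adjusted p = 6.74e-05), and is also GC-rich at 62.6%. ALDH4A1, which oxidizes the product of proline breakdown to glutamate, had 0.45 ± 0.111 and 0.76 ± 0.110 (adjusted p = 0.00731 and 0.000112), with 41.8% of its exon length shared with another gene on the same strand. ALDH6A1 of valine breakdown, ALDH9A1, which acts on aminoaldehydes, and the folate enzyme ALDH1L1 rose with co-treatment by 0.70, 0.53 and 1.53 on the log2 scale. In PANC1, limma called 1 of 6 tested, the mitochondrial folate enzyme ALDH1L2 with co-treatment, where 17.1% of all genes were called. DESeq2 also called 2 of 6 with genistein, 1 higher and 1 lower, and 1 of 6 with genistein added to gemcitabine. Limma and edgeR called 0 of 6 in both of these comparisons. ALDH1L2 was at 0.84 and 0.99 FPKM in the controls and 3.23 and 2.41 FPKM in the co-treated cells (log2 fold change 1.50 ± 0.243, adjusted p = 0.00555). In MiaPaCa2, ALDH1L2 rose by 1.01 with gemcitabine and 1.79 with co-treatment on the log2 scale (adjusted p = 0.0249 and 0.000357). It was not called there because its mean levels were below 1 FPKM.

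Genes that work next to the ALDH1A enzymes were read from a list of 18 genes of retinoid metabolism and signaling. In MiaPaCa2, 9 were tested, of which 1 rose and 1 fell with gemcitabine and 1 rose and 3 fell with co-treatment, or 2 of 9 and 4 of 9 against 29.5% and 40.5% of all genes. RDH10, the retinol dehydrogenase that supplies retinaldehyde, rose by 0.82 ± 0.170 (adjusted p = 0.00250) and 1.74 ± 0.161 (adjusted p = 3.27e-06) on the log2 scale, and by 0.92 ± 0.140 when genistein was added to gemcitabine (adjusted p = 0.00277). The receptor RXRA fell by 0.63 and 0.87 on the log2 scale, and with co-treatment the retinaldehyde reductase DHRS3 fell by 0.52 and the receptor RARG by 0.51. In PANC1, 14 were tested, with 1 up and 1 down for gemcitabine and 2 up and 3 down for co-treatment, against 7.52% and 17.1% of all genes. There the retinol dehydrogenase DHRS9 rose by 2.77 ± 0.245 and 2.76 ± 0.248 (adjusted p = 0.00171 and 0.000811), and the retinoic acid carrier CRABP2 fell by 0.63 and 0.94 on the log2 scale.

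Of 8 proline and glutamate genes around ALDH18A1, 2 rose and 1 fell with gemcitabine and 4 rose and 1 fell with co-treatment in MiaPaCa2, against 29.5% and 40.5% of all genes called. In PANC1, limma called 0 of 8 with gemcitabine, with 2 at an unadjusted p under 0.05, and 3 rose with co-treatment, against 7.52% and 17.1% of all genes. The proline oxidase PRODH rose by 1.09 and 2.06 on the log2 scale in MiaPaCa2 and by 2.54 with co-treatment in PANC1 (adjusted p = 0.00323, 1.10e-05 and 0.00221). PYCR1, which completes proline synthesis, fell by 0.48 and 0.57 on the log2 scale in MiaPaCa2. Asparagine synthetase, ASNS, rose with genistein by 0.45 ± 0.0827 in MiaPaCa2 and by 1.10 ± 0.0875 in PANC1 (adjusted p = 0.00606 and 0.0264).

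Among 14 alcohol dehydrogenases and aldo-keto reductases, 7 were tested in MiaPaCa2 and 4 in PANC1. AKR7A2, an aldehyde reductase, rose in MiaPaCa2 by 0.74 ± 0.113 with gemcitabine and 1.20 ± 0.112 with co-treatment (adjusted p = 0.000352 and 3.40e-06), and AKR1A1 and AKR1B1 rose with co-treatment by 0.55 and 0.45. The 1 and 3 of 7 called compare with 29.5% and 40.5% of all genes. In PANC1 limma called 0 of 4, with 0 at an unadjusted p under 0.05 with gemcitabine, 2 with genistein and 1 with co-treatment. Of 13 other pancreatic cancer stem cell markers, 5 were tested in MiaPaCa2. With gemcitabine and with co-treatment alike 1 rose and 2 fell, against 29.5% and 40.5% of all genes called in either direction. There the chemokine receptor CXCR4 rose by 2.45 ± 0.372 with gemcitabine and 4.56 ± 0.349 with co-treatment, while CD44 fell by 1.03 and 1.12 and the transcription factor SOX9 by 0.91 and 1.52 on the log2 scale. In PANC1, 7 were tested, with 1 up and 1 down for gemcitabine and 1 up and 3 down for co-treatment, against 7.52% and 17.1% of all genes. CXCR4 rose there by 1.96 and 3.09, CD44 fell by 0.44 and 0.70, and SOX9 fell by 0.48 with co-treatment on the log2 scale. Markers of epithelial and mesenchymal cells moved in the same libraries. The same shares of all genes, 29.5% and 40.5% in MiaPaCa2 and 7.52% and 17.1% in PANC1, stand beside their counts. Of 3 epithelial markers tested in MiaPaCa2, 1 fell with gemcitabine and 1 with co-treatment, and of 5 in PANC1, 2 and 3 fell. Their summed level in MiaPaCa2 was 1051 to 1216 FPKM in the controls, 851.4 to 880.0 with gemcitabine, 1376 to 1437 with genistein and 906.9 to 997.4 with co-treatment. In PANC1 it was 2139 to 2540 FPKM in the controls, 1567 to 1702 with gemcitabine, 2197 to 2199 with genistein and 1439 to 1451 with co-treatment. Of 3 mesenchymal markers tested in MiaPaCa2, FN1 rose by 2.83 and 3.94 with gemcitabine and co-treatment, while VIM fell by 0.66 and 0.71 and ZEB1 fell by 0.94 and 1.48 on the log2 scale, and of 4 in PANC1, VIM fell by 0.60 and 1.04. Their summed level in MiaPaCa2 was 3666 to 3708 FPKM in the controls, 2525 to 2543 with gemcitabine, 3754 to 3879 with genistein and 2340 to 2458 with co-treatment. In PANC1 it was 2648 to 2746, 1902 to 1981, 2265 to 2343 and 1413 to 1524 FPKM in the same order. The part of these shifts in the ALDH values was not tested.

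The genes closest in pattern to ALDH2, the member with the largest fitted change among those called in each line, were sought by the root mean square difference of the 3 log2 fold changes against the control. In MiaPaCa2, over 16064 genes and 8 libraries, these were ZNF878 (0.12), LRP4-AS1 (0.26) and IGFBPL1 (0.34), with 62 to 131 reads each in the 8 libraries together, and the likeness there rests on an ALDH2 change that the filter fixed in part. In PANC1, over 16909 genes, these were MED14-AS1 (0.075), the cyclin gene CCND2 (0.082) and F2RL2 (0.084), with 70, 200 and 612 reads.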

How the data were processed

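Libraries of poly-A RNA, made with a stranded kit, were sequenced by the authors as single 50-base reads, mapped to GRCh37 with TopHat2 2.0.4, cleared of multiply aligned reads with Picard 1.29 and counted with HTSeq 0.6.1. The deposited counts are whole reads per gene, without normalization. The deposited FPKM per gene and per transcript were made by the authors with Cufflinks 2.1.1 and are scaled to length and depth. Annotation release and strand setting are not given in the sources used here, so antisense reads may not be separated.

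Libraries were grouped by cell line and dose per the labels. Counts of the 8 libraries of a line were scaled by TMM (edgeR 4.0.16), filtered with filterByExpr (minimum count 10) and fitted with limma-voom (limma 3.58.1, R 4.3.3), and p-values were adjusted over all genes tested by Benjamini-Hochberg. Calls followed the study's thresholds. Differences between lines were taken from 1 model of all 16 libraries. The code was checked on simulated counts. The alternatives used edgeR's quasi-likelihood test, DESeq2 1.42.0, other scalings, no filter, a replicate block, a GC correction (loess, span 0.3), log2(FPKM + 1), other sets of libraries and the removal of each library. The sum of ALDH7A1 and ALDH7A1P1 counts was chosen after seeing the data. With 2 libraries a group, an exact permutation test cannot go below p = 0.333, and depth and replicate number limit what can be seen.

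The members and the gene lists were chosen with earlier results of these data known. All 10 members are named. Of the other ALDH genes those called, and of each other list up to 4 called genes with the largest change, may be named. Promoter sequences are from RefSeq (GRCh38.p14), where 8 of 10 members had an entry. Gene positions are from the GENCODE annotation lifted to GRCh37. A gene of 1 list and a sequence window are not reported here.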

Additional observations from a re-analysis of the deposited data

Results flagged for a closer look

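Of the differences in response between the lines, 4 passed the test of the difference itself. The gemcitabine response, PANC1 minus MiaPaCa2 on the log2 scale, was -2.49 for ALDH2, -1.95 for ALDH3A1 and -1.13 for ALDH3B1. The ALDH3A1 difference passed in 8 of 26 alternatives. The ALDH2 difference in gemcitabine response did not pass in 6 of 26 and that of ALDH3B1 in 7 of 26. The co-treated response of ALDH2 differed by -2.74 and did not pass in 2 of 26, on log2(FPKM + 1) (-0.24) and without MiaPaCa2 control replicate 1 (-2.52). In MiaPaCa2 the controls of ALDH2 held 1 read each, and in PANC1 ALDH3A1 had at most 12 reads in a library. The ALDH2 and ALDH3A1 differences rest on these few reads and support nothing on their own.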

How the results depend on the processing

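Over the alternatives no member's called change reversed its direction. ALDH1A1 with gemcitabine (-1.06 to -0.82) and with co-treatment (-1.20 to -0.94) and ALDH3A1 with gemcitabine (0.77 to 1.55) in MiaPaCa2 were called in all 21 alternatives. The co-treated ALDH2 value in MiaPaCa2 ranged from 1.23 to 4.33, and as its entry into the test depended on those libraries its calls say nothing of stability. Scaling by library size alone shifted the middle of the log2 fold changes over genes by 0.11 with gemcitabine in MiaPaCa2, where 3077 genes were then higher and 1554 lower against 2400 and 2345, and by 0.11 with gemcitabine and 0.16 with co-treatment in PANC1, where 1167 were higher and 317 lower against 759 and 513, and 2686 and 677 against 1730 and 1167. Relative to these shifts the ALDH1A1 change kept its direction and call. The number of members called with gemcitabine in MiaPaCa2 was 3 with library size alone, on log2(FPKM + 1) and in a fit of all 16 libraries. With genistein it was 0 on log2(FPKM + 1) and 3 by adjusted p alone, and for genistein added to gemcitabine it was 1 with the GC correction, with or without the replicate block. In PANC1 the number with gemcitabine was 0 with the replicate block, on log2(FPKM + 1) and in the 4 libraries compared, and 2 in all 16 libraries. With genistein in PANC1 it was 2 with DESeq2 and in all 16 libraries, and 1 with the GC correction, with or without the block, and in the 4 libraries compared. With co-treatment it was 1 with library size alone, with the block and on log2(FPKM + 1), and 0 in the 4 libraries compared. For genistein added to gemcitabine it was 1 with DESeq2, 3 with the GC correction, with or without the block, and 2 in all 16 libraries. Between the lines, 1 member differed in gemcitabine response on log2(FPKM + 1), ALDH1A1 (0.80), while ALDH2, ALDH3A1 and ALDH3B1 did not pass there, and in co-treated response ALDH1A1 (1.02) passed there in place of ALDH2. ALDH1A1 had 3 to 10 reads in each PANC1 library, so on this scale its PANC1 response is held near 0. Its differences there restate the fall in MiaPaCa2 and support nothing on their own. ALDH1A3 differed as the 1 member in genistein response with DESeq2 and with the GC correction, with or without the block, and 2, ALDH2 and ALDH3A1, in co-treated response with edgeR and DESeq2. The cause was not tested. For most of these settings the share of all genes called is not given, so a change in the members' counts cannot be set against it.

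With each library left out in turn, the number of members called ranged from 2 to 5 with gemcitabine, 0 to 1 with genistein and 2 to 4 with co-treatment in MiaPaCa2, from 0 to 2 with gemcitabine and 1 to 2 with co-treatment in PANC1, from 0 to 5 for the gemcitabine difference between the lines and 0 to 2 for the co-treated one. The count of members 2-fold apart between the untreated lines ranged from 5 to 6. It stayed at 0 for the comparisons not listed. The libraries behind the extremes were, in MiaPaCa2, control replicate 1 (2 with gemcitabine, 0 with genistein) and control replicate 2 (2 with co-treatment, 0 with genistein), and in PANC1 control replicate 2 (2 with gemcitabine). The gemcitabine difference fell to 0 without either MiaPaCa2 gemcitabine or control replicate or PANC1 gemcitabine replicate 2, to 1 without PANC1 control replicate 1, and was 5 without PANC1 control replicate 2. The co-treated difference was 0 without MiaPaCa2 control replicate 1 and 2 without PANC1 control replicate 2. A lone library was taken to vary like the other groups. Replicate numbers did not pair the libraries. Deviations of same-numbered libraries correlated between -0.30 and 0.16 in MiaPaCa2 and between -0.57 and 0.33 in PANC1, and the replicate block ended the ALDH3A2 call with gemcitabine (-0.63) and the ALDH1B1 call with co-treatment (-0.42) in PANC1 and no other call of a member against the control. Members with fewer than about 10 reads per library, ALDH1A2 in both lines and ALDH1A1 and ALDH3A1 in PANC1, could not be followed at this depth.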
